A study of Mus musculus with 18 samples.

Results

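Transcript levels of 9 genes of adrenergic and muscarinic receptor signalling, out of 24341 genes measured, were followed in 18 mouse hearts. They were picked out by symbol, with no threshold on a measured level, though with earlier results of these data known. They are the receptors Adrb1, Adra1a, Adra1b and Chrm2, the adenylyl cyclases Adcy5 and Adcy6, the inhibitory G protein subunit Gnai2, and the regulators Rgs2 and Rgs4. All 9 were found, and all 9 passed the minimum of 1 FPKM (a read count scaled for transcript length and library size) in at least 3 libraries. The hearts came from C57BL/6 mice aged 12 weeks in 6 groups of 3. The genotypes were a heart-restricted deletion of Med13, labelled cKO, and wild type, labelled WT. Each genotype had a group fed PTU (propylthiouracil, which blocks synthesis of thyroid hormone) and then injected daily on 3 days with T3 (triiodothyronine, the active hormone), a group fed PTU only and a group fed normal chow. Feeding began at 8 weeks of age and lasted 4 weeks. The driver of the deletion, the dose of T3 and the sex of the mice are not given in the sources used here, and the WT label does not say which alleles those mice carry. Whether each library came from its own animal is not stated outright, and the p-values therefore refer to differences among these libraries, which may be technical in part.

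Noradrenaline and adrenaline act on the heart through beta receptors, which stimulate adenylyl cyclase by way of the G protein Gs and so raise cAMP, and through alpha-1 receptors, which act by way of Gq and phospholipase C. Acetylcholine from the vagus acts through the M2 receptor and Gi, which lowers cAMP and opens a potassium channel. RGS proteins speed the return of G proteins to their inactive state. Thyroid hormone has long been known to change the sensitivity of the heart to catecholamines, and raised beta receptor numbers in hyperthyroid rodent hearts are a textbook case.

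The promoter sequences of Rgs4, Rgs2 and Adrb1 are shown because all 3 genes were called between PTU with T3 and PTU in both genotypes and their windows hold a match to a motif searched. Each runs 5′ to 3′ on the gene's strand from 250 bases before to 50 bases after the start, in lower case, with capitals on the letters TGACG or their reverse complement (a partial cAMP response element). The RefSeq windows (GRCm38.p6) are chr1:169747593-169747892, minus strand, for Rgs4, chr1:144004100-144004399, minus strand, for Rgs2, and chr19:56721867-56722166, plus strand, for Adrb1.
Rgs4: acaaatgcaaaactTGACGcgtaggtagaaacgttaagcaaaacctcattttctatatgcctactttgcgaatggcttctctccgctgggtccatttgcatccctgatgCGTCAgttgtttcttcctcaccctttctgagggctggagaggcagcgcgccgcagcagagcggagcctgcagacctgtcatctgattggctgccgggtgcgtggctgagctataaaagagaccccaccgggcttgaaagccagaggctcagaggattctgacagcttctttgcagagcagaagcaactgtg
Rgs2: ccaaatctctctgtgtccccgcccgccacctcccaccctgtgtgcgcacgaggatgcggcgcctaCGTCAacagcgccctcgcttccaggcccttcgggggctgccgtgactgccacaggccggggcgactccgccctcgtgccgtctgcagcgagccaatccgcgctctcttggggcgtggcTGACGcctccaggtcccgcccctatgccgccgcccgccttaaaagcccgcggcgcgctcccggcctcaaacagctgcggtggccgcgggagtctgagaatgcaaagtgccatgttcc
Adrb1: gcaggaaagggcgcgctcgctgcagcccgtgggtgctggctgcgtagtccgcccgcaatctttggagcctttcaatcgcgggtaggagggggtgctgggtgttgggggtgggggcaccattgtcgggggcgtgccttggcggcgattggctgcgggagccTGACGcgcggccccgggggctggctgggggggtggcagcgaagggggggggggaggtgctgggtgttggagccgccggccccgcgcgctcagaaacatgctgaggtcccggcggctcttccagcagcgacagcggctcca
The match began 236 and 141 bases upstream of the start in Rgs4, 185 and 67 bases upstream in Rgs2, and 90 bases upstream in Adrb1. RefSeq windows were matched for 6 of the 9 genes, 7 windows in all since Adra1b has a pair. TGACG, on either strand, stood in 3 of these 7 windows and in 20.8% of 32851 mouse promoter windows of this length. The full element TGACGTCA, which contains TGACG on each strand, stood in none of the 7 and in 1.79% of all windows. The letters AGGTCA, the core that thyroid hormone receptors bind, stood in none of the 7 and in 16.3% of all windows. A match is a run of letters and not a shown binding site, and Adra1a, Adcy6 and Gnai2 were not matched.

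The number of genes at 1 FPKM or more was 11679 to 12093 per library, the absolute depth is unknown, and relative depth, read from the steps between low values, differed at most 1.53-fold. The targeted gene Med13 (chromosome 11, 86267033 to 86357602, minus strand, on GRCm38 as for all positions below, with Brip1os overlapping on the other strand) had 6.25 ± 0.723 FPKM with T3, 5.34 ± 0.618 FPKM on PTU and 5.90 ± 0.702 FPKM on chow in hearts labelled cKO. In WT hearts it had 5.73 ± 0.509, 6.36 ± 0.716 and 5.52 ± 0.283 FPKM in that order (SD, n = 3 each). Its gene-level value does not separate the genotypes, and every direction between genotypes below rests on the labels. Markers of heart muscle were abundant in all 18 libraries, at levels that differed between treatments in cKO hearts, as given with the other markers below. Of 9 nerve markers, Chat and Slc18a3, which define cholinergic neurons, stood at the floor of 0.01 FPKM in all 18 libraries and Th in 17. In such bulk tissue, fewer cells of a type and less RNA per cell cannot be told apart.

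With T3 against PTU, the same 6 of the 9 genes were called in both genotypes and split evenly by direction. The receptors Adrb1 and Adra1b and the regulator Rgs4 were higher with T3, and the cyclase Adcy6, the regulator Rgs2 and the subunit Gnai2 were lower. A call here is an adjusted p under 0.05 (limma on log2(FPKM + 1), Benjamini-Hochberg over 12587 genes). In cKO hearts Adra1a was called as well, which made 7 of 9 called, against 46.7% of all tested genes, with 4 of 9 higher, against 24.9%, and 3 of 9 lower, against 21.8%. In WT hearts 6 of 9 were called, against 44.1% of all genes, with 3 of 9 higher, against 22.3%, and 3 of 9 lower, against 21.8%. PTU against chow gave 6 of 9 calls in cKO hearts, against 16% of all genes, with 2 of 9 higher, against 6.44%, and 4 of 9 lower, against 9.59%. In WT hearts it gave 3 of 9, against 16.8%, with 1 of 9 higher, against 8.02%, and 2 of 9 lower, against 8.76%. PTU with T3 against chow gave 1 of 9 calls in cKO hearts, against 20.9%, and 1 of 9 in WT hearts, against 14.7%. The gene was Adra1b in both, the only 1 of 9 higher, against 11.7% of all genes in cKO and 7.68% in WT, and 0 of 9 were lower, against 9.15% and 7%.

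The median size of the log2 change between PTU with T3 and PTU was 0.95 over the 9 genes and 0.30 over all tested genes in cKO hearts, and 0.54 and 0.29 in WT hearts. For PTU against chow it was 0.55 and 0.18 in cKO hearts, and 0.36 and 0.18 in WT hearts. For PTU with T3 against chow it was 0.24 and 0.19 in cKO hearts, and 0.14 and 0.17 in WT hearts, the last being smaller over the 9 genes than over all genes. The comparisons within a genotype share the PTU or the chow hearts and are not independent. PTU and chow groups did not overlap for 6 of 9 genes in cKO hearts, against 32.4% of all genes, and for 4 of 9 in WT hearts, against 35.6%. T3 and PTU groups did not overlap for 8 of 9 in cKO hearts, against 55.4%, and for 6 of 9 in WT hearts, against 50.7%. T3 and chow groups did not overlap for 3 of 9 in cKO hearts, against 41.7%, and for 2 of 9 in WT hearts, against 31.4%.

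**Figure D1:**
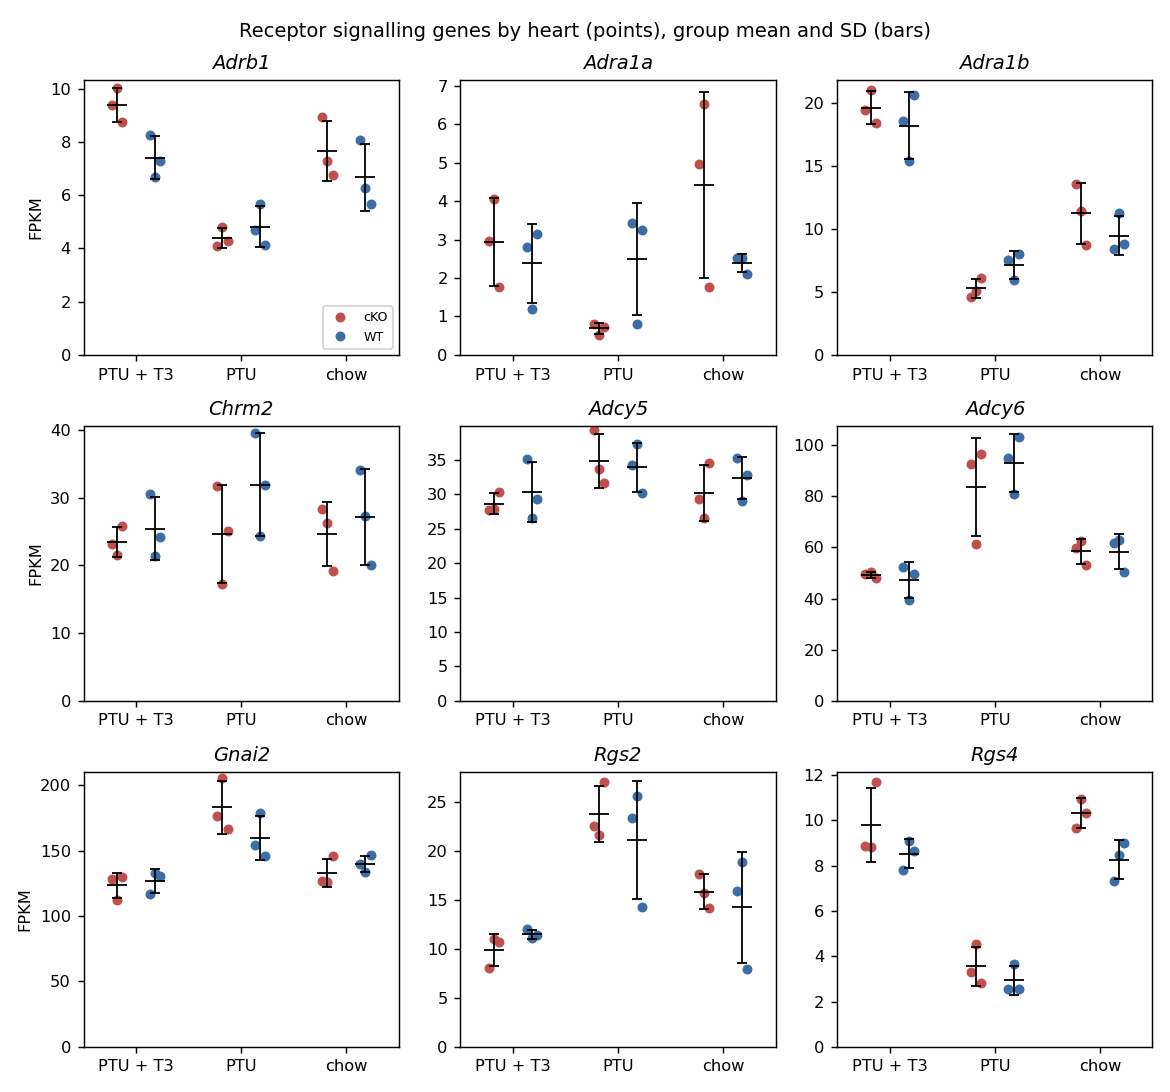
FPKM of each gene in each of the 18 hearts (points), by treatment on the horizontal axis and genotype by colour, with the group mean and SD (bars, n = 3). Rgs4 in PTU hearts lies at 2.55 to 4.52 FPKM, below every other heart, and Adcy6 on PTU reaches 103 FPKM, while points of Chrm2 and Adcy5 overlap across treatments in most panels.

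Adrb1, the main beta receptor of heart muscle (chromosome 19, 56722199 to 56733113, plus strand), was lower on PTU and higher with T3 in both genotypes. In cKO hearts it had 9.40, 10.04 and 8.77 FPKM with T3, 4.08, 4.81 and 4.27 FPKM on PTU, and 8.95, 7.30 and 6.78 FPKM on chow. WT hearts had 8.28, 6.70 and 7.27 FPKM with T3, 4.68, 5.66 and 4.13 FPKM on PTU, and 8.07, 6.28 and 5.67 FPKM on chow. The PTU hearts lay below the T3 and the chow hearts of their genotype without overlap, by 5.66 against 5.67 FPKM at the closest in WT. With T3 against PTU it rose by a log2 fold change of 0.95 in cKO hearts (SE 0.13, limma adjusted p = 2.06e-05), and by 0.54 in WT hearts (SE 0.13, adjusted p = 0.00308). On PTU against chow it fell by 0.68 on the log2 scale in cKO hearts (SE 0.13, adjusted p = 0.00248) and fell by 0.39 in WT hearts (SE 0.13, adjusted p = 0.0443). The WT call on PTU ended without any one of 4 hearts (WT chow 1 or 2, WT PTU 1 or 3), when the most atrial heart of every group was dropped, with no filter or with only these groups fitted, and over all alternatives its adjusted p ran between 0.00586 and 0.198. In the authors' deposited table the same comparison had 4.88 FPKM on PTU against 6.77 FPKM on chow, with a q-value of 0.0631.

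Adra1b, an alpha-1 receptor (chromosome 11, 43774606 to 43901210, minus strand), was the only one of the 9 genes called between T3 hearts and chow hearts. It had 19.5, 21.02 and 18.4 FPKM with T3, 4.61, 5.09 and 6.14 FPKM on PTU, and 13.6, 11.4 and 8.77 FPKM on chow in cKO hearts. The WT hearts had 18.6, 15.4 and 20.7 FPKM with T3, 7.52, 5.92 and 8.03 FPKM on PTU, and 8.38, 11.2 and 8.80 FPKM on chow. The 3 treatments did not overlap within a genotype, with T3 hearts highest and PTU hearts lowest. Against PTU it rose with T3 by 1.72 in cKO hearts (log2, SE 0.15, limma adjusted p = 4.17e-07), a 3.72-fold mean difference in FPKM, and by 1.24 in WT hearts (SE 0.15, adjusted p = 1.16e-05), 2.55-fold. Against chow it rose with T3 by 0.77 in cKO hearts (SE 0.15, adjusted p = 0.00259) and by 0.88 in WT hearts (SE 0.15, adjusted p = 0.00191). The cKO call against chow ended when the most atrial heart of every group was dropped (log2 0.57, adjusted p = 0.0809; 0.00127 to 0.0809 over all alternatives). PTU against chow gave a fall of 0.95 in cKO hearts (SE 0.15, adjusted p = 0.000791), and in WT hearts a log2 change of -0.36 (SE 0.15) that was not called (adjusted p = 0.121). The authors' deposited table gave that WT comparison a q-value of 0.0504.

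Adra1a, the other alpha-1 receptor among the 9 (chromosome 14, 66635251 to 66771168, plus strand), had the lowest mean level of these genes and fell on PTU in cKO hearts. In cKO hearts it had 2.95, 4.06 and 1.78 FPKM with T3, 0.812, 0.526 and 0.733 FPKM on PTU, and 4.97, 6.52 and 1.77 FPKM on chow. WT hearts had 2.80, 1.20 and 3.13 FPKM with T3, 3.42, 0.802 and 3.26 FPKM on PTU, and 2.53, 2.51 and 2.11 FPKM on chow. All 3 cKO PTU hearts were low and did not overlap the other cKO groups, whereas among WT PTU hearts 1 was low and the others stood above every WT chow heart. In cKO hearts it fell on PTU against chow by 1.57 (log2, SE 0.38, limma adjusted p = 0.0119) and rose with T3 against PTU by 1.18 (SE 0.38, adjusted p = 0.0181). The log2 changes in WT hearts were -0.06 on PTU against chow (95% interval -0.86 to 0.74, adjusted p = 0.934) and 0.01 with T3 against PTU (-0.79 to 0.81, adjusted p = 0.988). The cKO call on PTU ended without cKO chow heart 1 or 2 (adjusted p 0.0566 and 0.0579; 0.000414 to 0.0579 over all alternatives). The cKO call with T3 ended without cKO PTU heart 2 or cKO T3 heart 2 (0.0543 and 0.0802), or when the most atrial heart of every group was dropped (0.0974; 0.00269 to 0.0974 over all alternatives).

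Chrm2, the M2 muscarinic receptor of heart muscle (chromosome 6, 36388084 to 36528414, plus strand, overlapped on the other strand by 9330158H04Rik), was called in none of the 12 comparisons. In cKO hearts it had 23.2, 21.5 and 25.9 FPKM with T3, 31.7, 17.2 and 25.0 FPKM on PTU, and 28.3, 26.3 and 19.2 FPKM on chow. In WT hearts the values were 30.5, 21.4 and 24.2 FPKM with T3, 39.5, 24.3 and 31.9 FPKM on PTU, and 34.1, 27.3 and 20.0 FPKM on chow. All treatment groups overlapped, and the 3 cKO PTU hearts alone spanned 17.2 to 31.7 FPKM. The log2 change with T3 against PTU was -0.03 in cKO hearts (95% interval -0.52 to 0.46, limma adjusted p = 0.925) and -0.31 in WT hearts (-0.80 to 0.19, adjusted p = 0.304). The rise called in Adrb1 in the same comparison was 0.54 in WT and 0.95 in cKO. The WT interval of Chrm2 holds a fall of that size but not a rise, and the cKO interval holds neither. Since Adrb1 was called and Chrm2 was not, the ratio of Chrm2 to Adrb1 (both in FPKM) is given by heart, untested. It was 2.47, 2.14 and 2.95 with T3, 7.79, 3.58 and 5.86 on PTU and 3.16, 3.602 and 2.83 on chow in cKO hearts. WT hearts had 3.68, 3.20 and 3.33 with T3, 8.44, 4.30 and 7.72 on PTU and 4.22, 4.34 and 3.53 on chow. The PTU ratio lay above the T3 ratio in all hearts of each genotype, and overlapped the chow ratio in both genotypes by 1 PTU heart.

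Adcy5 and Adcy6 are the major calcium-inhibited adenylyl cyclases of heart muscle, and only Adcy6 (chromosome 15, 98589973 to 98610076, minus strand, with the antisense gene Gm29331) was called. It had 49.6, 50.4 and 48.1 FPKM with T3, 92.7, 61.5 and 96.8 FPKM on PTU, and 59.7, 62.6 and 53.2 FPKM on chow in cKO hearts. The WT hearts had 52.5, 39.4 and 49.8 FPKM with T3, 95.1, 80.9 and 103 FPKM on PTU, and 61.7, 62.8 and 50.5 FPKM on chow. PTU hearts were the highest, except that cKO PTU heart 2 lay within the chow range. With T3 against PTU it fell by 0.72 on the log2 scale in cKO hearts (SE 0.15, limma adjusted p = 0.00119) and by 0.97 in WT hearts (SE 0.15, adjusted p = 0.000121). On PTU against chow it rose by 0.48 in cKO hearts (SE 0.15, adjusted p = 0.0428) and by 0.66 in WT hearts (SE 0.15, adjusted p = 0.00818). The cKO call on PTU ended without any one of 5 of its 6 hearts (all but cKO PTU 2), with no filter and with only these groups fitted, and its adjusted p ran from 0.00142 to 0.154 over all alternatives.

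Adcy5 (chromosome 16, 35154877 to 35305738, plus strand, overlapped on the other strand by Gm25179) ranged from 26.5 to 39.3 FPKM over the 18 hearts. Its group means were 28.6 ± 1.52 FPKM with T3, 34.9 ± 3.94 FPKM on PTU and 30.2 ± 4.06 FPKM on chow in cKO hearts, and 30.4 ± 4.41, 33.9 ± 3.55 and 32.4 ± 3.10 FPKM in that order in WT hearts (SD, n = 3 each). The nearest to a call was T3 against PTU in cKO hearts, with a log2 change of -0.27 (SE 0.12, limma adjusted p = 0.0754) and no overlap between the groups; it was called with array weights and with quantile normalization (0.0175 to 0.272 over all alternatives). The ratio of Adcy6 to Adcy5, both per transcript length, was 1.73 ± 0.127 with T3, 2.41 ± 0.618 on PTU and 1.97 ± 0.410 on chow in cKO hearts. In WT hearts it was 1.56 ± 0.120, 2.78 ± 0.622 and 1.82 ± 0.316 in that order (SD, n = 3 each). Adcy6 was thus the more abundant transcript in all 18 hearts, and its lead was widest on PTU in both genotypes by group mean.

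Gnai2, an alpha subunit of Gi that inhibits adenylyl cyclase (chromosome 9, 107614125 to 107635367, minus strand), was the most abundant of the 9. It had 128, 112 and 130.1 FPKM with T3, 177, 206 and 167 FPKM on PTU, and 127, 126 and 146 FPKM on chow in cKO hearts. The values in WT hearts were 117, 133 and 131 FPKM with T3, 154, 179 and 146 FPKM on PTU, and 139.6, 134 and 147 FPKM on chow. PTU hearts lay above T3 hearts without overlap in both genotypes, and above chow hearts without overlap in cKO. Against PTU it fell with T3 by 0.56 (log2) in cKO hearts (SE 0.10, limma adjusted p = 0.000373) and by 0.33 in WT hearts (SE 0.10, adjusted p = 0.0178). PTU against chow gave a rise of 0.46 in cKO hearts (SE 0.10, adjusted p = 0.00798), lost with only these groups fitted (0.0531; 0.00358 to 0.0531 over all alternatives), and a log2 change of 0.18 in WT hearts that was not called (SE 0.10, adjusted p = 0.240). The WT call with T3 ended without WT PTU heart 2 or WT T3 heart 1 (0.0917 and 0.0747), without the hearts highest in fibroblast genes or with only these groups fitted (0.0116 to 0.0917 over all alternatives), and in the authors' deposited table this comparison had a q-value of 0.0844.

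The RGS genes moved in opposite directions. Rgs4, a regulator that acts on Gi and Gq (chromosome 1, 169741477 to 169747642, minus strand), had 8.88, 8.85 and 11.7 FPKM with T3, 3.31, 4.52 and 2.83 FPKM on PTU, and 9.66, 10.97 and 10.3 FPKM on chow in cKO hearts. It had 7.82, 9.11 and 8.67 FPKM with T3, 2.56, 3.68 and 2.55 FPKM on PTU, and 7.32, 8.48 and 9.01 FPKM on chow in WT hearts. The highest of all PTU hearts stood at 4.52 FPKM and the lowest of all other hearts at 7.32 FPKM. On PTU against chow Rgs4 fell by 1.33 (log2) in cKO hearts (SE 0.14, limma adjusted p = 1.91e-05) and fell by 1.246 in WT hearts (SE 0.14, adjusted p = 3.81e-05), 2.90-fold and 2.82-fold lower in mean FPKM. With T3 against PTU it rose by 1.252 in cKO hearts (SE 0.14, adjusted p = 3.81e-06) and by 1.29 in WT hearts (SE 0.14, adjusted p = 3.71e-06). T3 and chow hearts differed by -0.08 in cKO (95% interval -0.38 to 0.22) and by 0.04 in WT (-0.26 to 0.34). All 4 calls of Rgs4 were kept under every alternative tried.

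Rgs2, a regulator that acts chiefly on Gq (chromosome 1, 143999338 to 144004161, minus strand), was highest on PTU by group mean. It had 8.05, 10.99 and 10.7 FPKM with T3, 22.5, 21.7 and 27.0 FPKM on PTU, and 17.7, 15.8 and 14.2 FPKM on chow in cKO hearts. WT hearts had 12.0, 11.1 and 11.4 FPKM with T3, 23.4, 25.7 and 14.3 FPKM on PTU, and 15.9, 18.9 and 7.93 FPKM on chow. The T3 hearts lay below the PTU hearts in both genotypes and below the chow hearts in cKO. Against PTU it fell with T3 by 1.19 (log2) in cKO hearts (SE 0.25, limma adjusted p = 0.00105) and by 0.78 in WT hearts (SE 0.25, adjusted p = 0.0176). The WT call ended without WT PTU heart 1 or 2 (0.0642 and 0.0795; 0.00393 to 0.0795 over all alternatives). The log2 changes on PTU against chow, 0.55 in cKO (SE 0.25, adjusted p = 0.139) and 0.57 in WT (SE 0.25, adjusted p = 0.123), were not called, while the authors' deposited table gave the WT comparison a q-value of 0.00200. The ratio of Rgs2 to Rgs4 was 0.907, 1.24 and 0.917 with T3, 6.82, 4.79 and 9.54 on PTU and 1.83, 1.44 and 1.37 on chow in cKO hearts. In WT hearts it was 1.54, 1.22 and 1.32 with T3, 9.13, 6.98 and 5.59 on PTU and 2.17, 2.23 and 0.880 on chow. Every PTU heart had a higher ratio than every heart of the other treatments. The ratio was not tested and adds no separate result, since Rgs4 alone already separated the PTU hearts from all others.

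**Figure D2:**
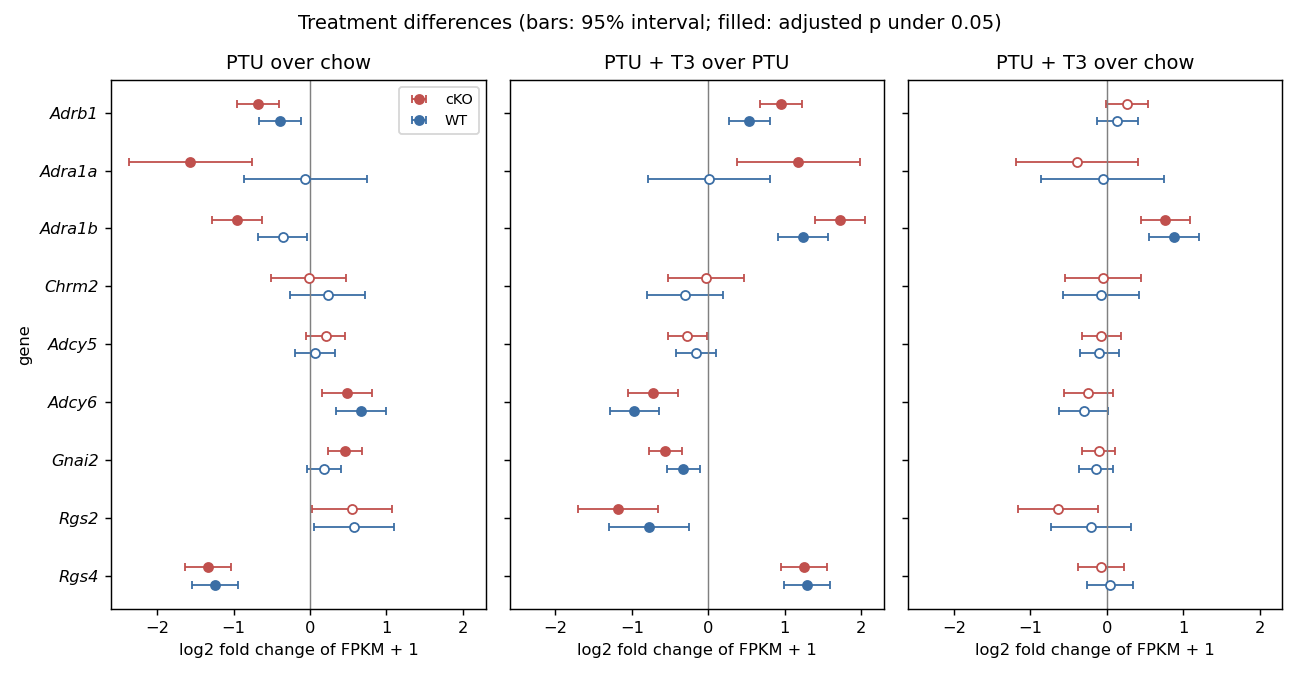
Log2 fold change of FPKM + 1 with its 95% interval (horizontal axis) for each gene (vertical axis) in 3 treatment comparisons, cKO above WT; filled points have an adjusted p under 0.05. Rgs4 stands at -1.33 and -1.246 on PTU over chow and at 1.252 and 1.29 with T3 over PTU, and Adra1b alone is filled for T3 over chow, at 0.77 and 0.88.

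None of the 9 genes was called between cKO and WT. limma called 0 of 9 genes and 0% of 12587 genes with T3, on PTU, on chow and averaged over treatments. At an unadjusted p under 0.05, limma gave 1 of the 9 and 434 of all genes with T3 (3.45%), 2 of the 9 and 491 on PTU (3.90%), 0 of the 9 and 394 on chow (3.13%), and 1 of the 9 and 209 averaged over treatments (1.66%). The one with T3 was Adrb1, at a log2 difference of 0.31 (cKO minus WT, SE 0.13, limma adjusted p = 0.979), with 9.40 ± 0.632 FPKM in cKO hearts and 7.42 ± 0.803 FPKM in WT hearts and no overlap between the groups. The groups also did not overlap for Rgs2 with T3, at 8.05 to 10.99 FPKM in cKO and 11.07 to 12.0 FPKM in WT, making 2 of 9 there against 8.54% of all genes. On chow the only such gene was Rgs4, at 9.66 to 10.97 FPKM in cKO and 7.32 to 9.01 FPKM in WT, 1 of 9 against 8.51% of all genes. Averaged over treatments, Rgs4 was higher in cKO by 0.22 (log2, SE 0.08, limma adjusted p = 1).

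Adra1a and Adra1b were the pair with an unadjusted p under 0.05 on PTU, both lower in cKO. Adra1a had 0.690 ± 0.148 FPKM in cKO hearts and 2.495 ± 1.47 FPKM in WT hearts (log2 difference -0.94, SE 0.38, limma adjusted p = 0.911), with overlap through WT PTU heart 2. Adra1b had 5.28 ± 0.783 FPKM in cKO hearts and 7.16 ± 1.10 FPKM in WT hearts (-0.38, SE 0.15, limma adjusted p = 0.911; SD, n = 3 each). The authors' deposited tables differ here for Adra1a. They give it 0.719 FPKM in cKO against 2.58 FPKM in WT on PTU, with a q-value of 0.00844, and 4.41 FPKM in cKO against 2.38 FPKM in WT on chow, with a q-value of 0.00987. By the authors' deposited q-values, 1 of the 9 genes was under 0.05 on PTU, among 117 genes (0.950% of those they tested), 1 of the 9 on chow, among 80 (0.664%), and 0 of the 9 with T3, among 121 (0.991%).

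The difference between genotypes in the effect of PTU, and in that of T3, was tested as an interaction, and limma called 0 of 9 genes and 0% of all genes in each. At an unadjusted p under 0.05 there were 2 of the 9 and 805 of all genes (6.40%) for PTU and 3 of the 9 and 821 of all genes (6.52%) for T3. For PTU, Adra1a differed by -1.51 (log2, cKO minus WT, SE 0.53, limma adjusted p = 0.764) and Adra1b by -0.59 (SE 0.22, adjusted p = 0.764). For T3, Adra1a differed by 1.17 (SE 0.53), Adrb1 by 0.41 (SE 0.18) and Adra1b by 0.49 (SE 0.22), each at a limma adjusted p of 0.696. The 2 interactions share the PTU hearts. So Adra1a was called on PTU in cKO hearts and not in WT hearts without a called difference between them. Its PTU interaction was called under 1 alternative, added after the data were seen: without the heart highest in fibroblast markers of each group it was -2.22 (SE 0.32, adjusted p = 0.0307; 0.0307 to 0.9997 over all alternatives).

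Within groups, levels of several of the 9 genes moved with markers of other cell types and with the summed FPKM of the library. The summed level of 8 fibroblast markers ranged from 735 to 1007 FPKM with T3, 837 to 1878 FPKM on PTU and 772 to 1009 FPKM on chow in cKO hearts, and from 759 to 1835, 568 to 1276 and 788 to 1307 FPKM in that order in WT hearts. The heart with most fibroblast signal was the lowest of its group in Adra1a, Chrm2, Adcy6 and Rgs2 in 5 of 6 groups for each gene, and the highest in Gnai2 in 5 of 6. As a description over the deviations of the 18 libraries from their group means, Pearson's r with the fibroblast sum was -0.93 for Adcy6, 0.77 for Gnai2, -0.69 for Chrm2 and -0.60 for Adra1a. It was 0.59 for Rgs4 and -0.53 for Adra1b, and weak for Rgs2 (-0.16), Adrb1 (0.11) and Adcy5 (-0.02). With the sum of smooth muscle and pericyte markers r was largest in size for Rgs4, at 0.53. With the summed FPKM of all genes it was 0.80 for Adra1b, 0.74 for Adra1a, 0.70 for Adcy6, -0.70 for Gnai2 and -0.56 for Rgs4. That sum was 669628 to 766445 with T3 and 551177 to 643700 on PTU in cKO hearts, without overlap, and 604633 to 743680 and 582241 to 691588 in WT hearts. Conversely, the heart with most cardiomyocyte signal (8 markers) was the highest in Adra1b and in Adcy6 in 5 of 6 groups, and the lowest in Gnai2 in 5 of 6. WT PTU heart 2, the low one for Adra1a, and cKO PTU heart 2, the low one for Adcy6, had the most fibroblast signal in their groups. None of the 8 fibroblast markers was at the floor in any library. Over the 18 hearts Postn ranged from 8.71 to 411 FPKM, Dcn from 463 to 801 FPKM and Col3a1 from 13.6 to 329 FPKM. Col1a2 ranged from 20.4 to 198 FPKM and Col1a1 from 7.73 to 170 FPKM. Lum spanned 35.0 to 128 FPKM, Tcf21 8.71 to 20.7 FPKM and Pdgfra 8.25 to 12.5 FPKM. The sum thus follows Postn, Dcn and the collagen genes most, and does not by itself measure the number of fibroblasts. The part of these cells, of these genes and of the summed FPKM in the results was not tested.

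**Figure D3:**
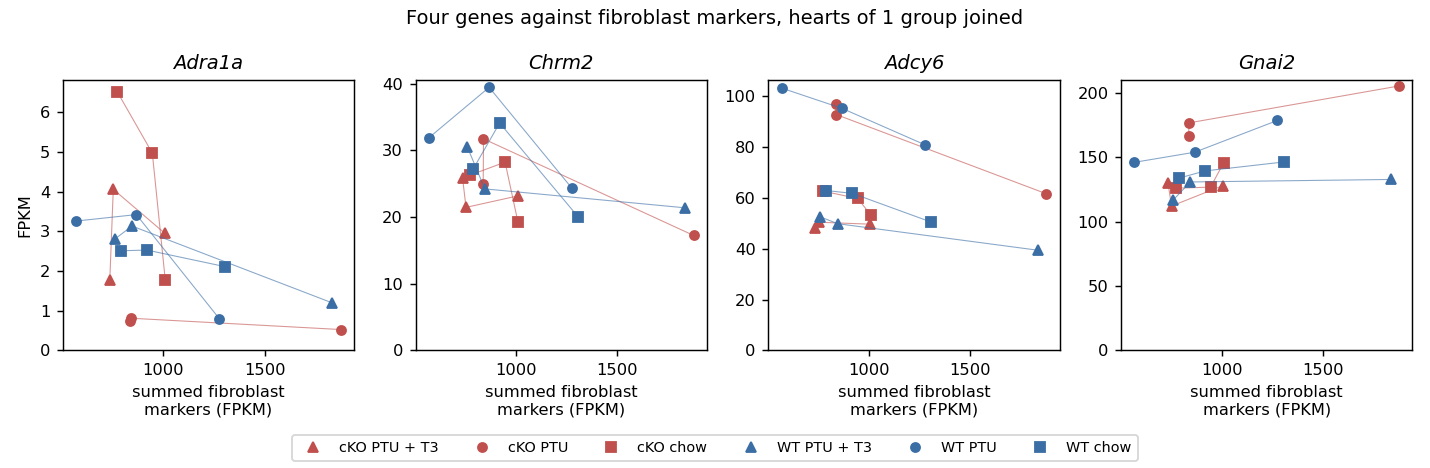
FPKM of Adra1a, Chrm2, Adcy6 and Gnai2 (vertical axes) against the summed FPKM of 8 fibroblast markers (horizontal axes) in each heart, coloured by genotype with a symbol per treatment and lines joining hearts of 1 group. The cKO PTU heart at 1878 FPKM of fibroblast markers has 61.5 FPKM of Adcy6 and 206 FPKM of Gnai2, the lowest and highest of its group.

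Marker sums also moved with treatment. The 9 smooth muscle and pericyte markers summed to 499 to 633 FPKM with T3, 324 to 386 FPKM on PTU and 439 to 525 FPKM on chow in cKO hearts, and to 600.2 to 835, 313 to 334 and 444 to 523 FPKM in that order in WT hearts. The 8 macrophage and leukocyte markers summed to 243 to 292, 92.4 to 254 and 192 to 239 FPKM in cKO hearts, and to 251 to 350.5, 80.6 to 134 and 159.9 to 278 FPKM in WT hearts. These sums were lowest on PTU and highest with T3 by group mean, the order seen in Adra1b, and their part in the results for Adrb1, Adra1b and Rgs4 was not tested. Among the 9 smooth muscle and pericyte markers, Acta2 had the widest range, 38.7 to 565 FPKM, followed by Rgs5, at 86.5 to 163 FPKM. The 8 endothelial markers had group means between 274 and 303 FPKM. Atrial markers varied most by heart, from 536 to 10249 FPKM (6 markers, of which Bmp10 was at the floor in 10 libraries). Most of this range came from Nppa, at 507 to 10081 FPKM, and the next highest marker, Myl7, reached 1075 FPKM. The most atrial heart of a group was chosen by this sum, and so mainly by Nppa. The sum of the 7 conduction cell markers, of which Isl1 was at the floor in 14 libraries, had the same order as Adra1b, at 14.5 to 14.9 FPKM with T3, 7.18 to 9.42 FPKM on PTU and 11.3 to 13.1 FPKM on chow in cKO hearts, and at means of 13.9, 10.1 and 11.4 FPKM in that order in WT hearts. Among these markers Hcn4 had the widest range, 1.08 to 8.49 FPKM, followed by Tbx3, at 2.05 to 5.41 FPKM. Isl1, Shox2 and Cacna1d did not reach the minimum for testing. Cardiomyocyte markers summed to 56077 to 71284 FPKM with T3 and 36208 to 51609 FPKM on PTU in cKO hearts, without overlap, and to means of 54898 and 54269 FPKM in WT hearts. The 4 brown adipocyte markers, of which Ucp1 was at the floor in 10 libraries, summed to 41.9 to 48.4 FPKM with T3 and 34.5 to 36.1 FPKM on PTU in cKO hearts, and to 40.4 to 58.6 and 29.9 to 35.4 FPKM in WT hearts, without overlap in either. Cidea made up most of the brown adipocyte sum, at 26.8 to 47.9 FPKM over the 18 hearts. Adipoq, Plin1 and Ucp1 had medians of 0.448, 0.211 and 0.01 FPKM. The part of the cell types named here in the results for the 9 genes was not tested.

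The rest of the pathway, 94 genes in 9 lists by role of which 74 were tested, was called at shares from 17.6% to 48.6% in the 6 treatment comparisons, given here beside the shares of all genes. With T3 against PTU, 13 were called higher and 23 lower in cKO hearts (48.6%, against 46.7% of all genes), and 14 higher and 15 lower in WT hearts (39.2%, against 44.1%). On PTU against chow, 8 rose and 8 fell in cKO hearts (21.6%, against 16%), and 4 rose and 10 fell in WT hearts (18.9%, against 16.8%). With T3 against chow the calls were 5 higher and 8 lower in cKO (17.6%, against 20.9%) and 5 higher and 10 lower in WT (20.3%, against 14.7%). Between genotypes, and for both interactions, limma called 0 of the 74. The other 20 did not reach the minimum, among them Adrb3, the alpha-2 receptors Adra2a, Adra2b and Adra2c, and the other muscarinic receptors Chrm1, Chrm3, Chrm4 and Chrm5.

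**Figure D4:**
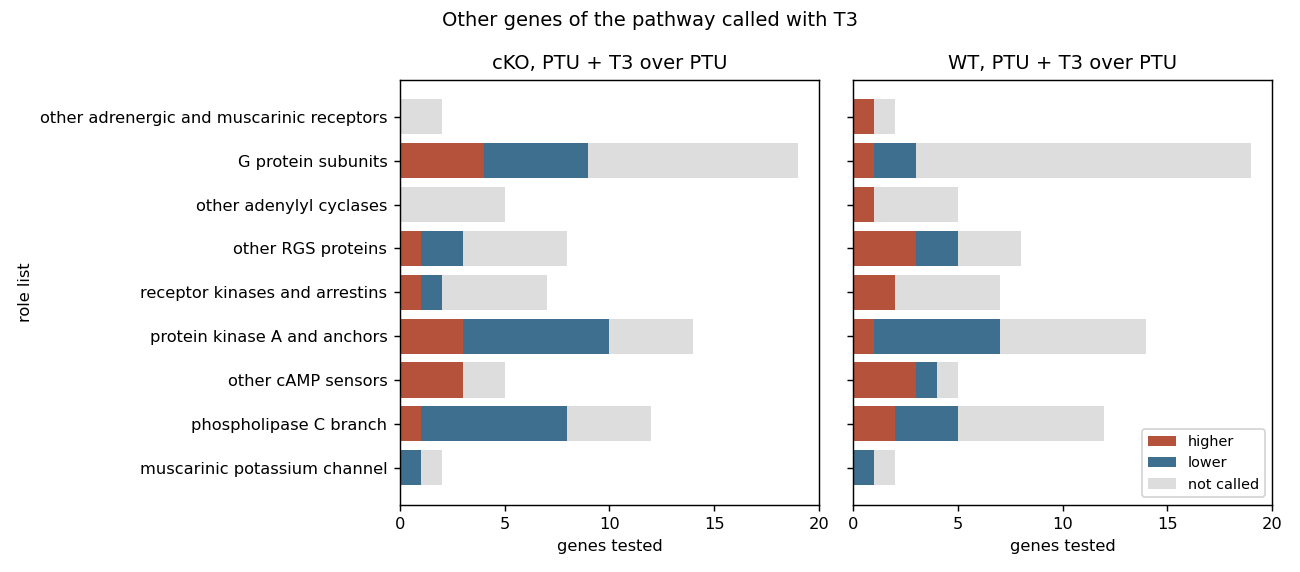
Number of tested genes (horizontal axis) in each role list (vertical axis) called higher, called lower or not called with T3 over PTU, in cKO hearts (left) and WT hearts (right). Among 14 genes of protein kinase A and its anchors, 3 are higher and 7 lower in cKO (71.4% called, against 46.7% of all genes), and 1 higher and 6 lower in WT (50% called, against 44.1%).

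Of 19 G protein subunits tested, 4 rose and 5 fell with T3 against PTU in cKO hearts (47.4%, against 46.7% of all genes), and 1 rose and 2 fell in WT hearts (15.8%, against 44.1%). Gng10, a gamma subunit, rose by 1.28 in cKO (log2, SE 0.16, adjusted p = 8.13e-06) and by 1.47 in WT (SE 0.16, adjusted p = 2.68e-06). Gnas, which encodes the Gs alpha subunit that couples beta receptors to adenylyl cyclase, fell by 0.27 in cKO (SE 0.08, adjusted p = 0.0124) and by 0.30 in WT (SE 0.08, adjusted p = 0.00756). Gna12 fell by 0.40 in cKO (SE 0.12, adjusted p = 0.0123) and by 0.60 in WT (SE 0.12, adjusted p = 0.000898).

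Of the 5 other adenylyl cyclases tested, Adcy7 was called with T3 against PTU in WT, at 8.54 ± 3.64 FPKM with T3 and 2.04 ± 0.283 FPKM on PTU (adjusted p = 0.00352), and not in cKO, at 6.87 ± 0.987 and 3.92 ± 3.39 FPKM (limma adjusted p = 0.0704; SD, n = 3 each); the interaction was not called (adjusted p = 0.715). The largest T3 difference of the pathway was in Rgs7, an RGS protein known mainly from neurons. It had 13.96 ± 2.78 FPKM with T3, 0.462 ± 0.507 FPKM on PTU and 1.72 ± 0.596 FPKM on chow in cKO hearts, and 13.5 ± 4.81, 0.3375 ± 0.378 and 1.97 ± 0.847 FPKM in that order in WT hearts (SD, n = 3 each). It rose with T3 against PTU by 3.39 in cKO (log2, SE 0.30, adjusted p = 4.31e-07) and by 3.42 in WT (SE 0.30, adjusted p = 4.32e-07), and fell on PTU against chow by 0.92 in cKO (adjusted p = 0.0447) and by 1.14 in WT (adjusted p = 0.0155). The summed nerve and Schwann cell markers stood at 5.50 to 6.78 FPKM with T3 and 8.13 to 12.5 FPKM on PTU in cKO, and at 5.25 to 12.5 and 5.48 to 9.83 FPKM in WT. Rgs12 fell with T3 against PTU by 0.70 in cKO (adjusted p = 0.000512) and by 0.60 in WT (adjusted p = 0.00203), while Rgs10 rose in WT (log2 1.26, SE 0.45, adjusted p = 0.0345) and had a log2 change of 0.04 in cKO (SE 0.45, adjusted p = 0.953). The cKO PTU hearts spanned 5.71 to 20.7 FPKM of Rgs10, and its T3 interaction was not called (limma adjusted p = 0.696). Among 7 receptor kinases and arrestins, Grk6 rose with T3 against PTU by 0.64 in cKO (SE 0.10, adjusted p = 7.88e-05) and by 0.89 in WT (SE 0.10, adjusted p = 4.30e-06). Arrb2, beta-arrestin 2, was called higher in WT (log2 0.63, SE 0.23, adjusted p = 0.0344) and had 0.14 in cKO (SE 0.23, adjusted p = 0.651). It spanned 6.60 to 13.1 FPKM in cKO PTU hearts, and its T3 interaction was not called (limma adjusted p = 0.703).

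Downstream of cAMP, Prkar1a, a regulatory subunit of protein kinase A, had 149.8 ± 7.73 FPKM with T3, 315 ± 43.5 FPKM on PTU and 177 ± 1.35 FPKM on chow in cKO hearts, and 150.1 ± 13.5, 303 ± 13.0 and 179.5 ± 16.2 FPKM in that order in WT hearts (SD, n = 3 each). It fell with T3 against PTU by 1.06 in cKO (log2, SE 0.10, limma adjusted p = 7.96e-07) and by 1.01 in WT (SE 0.10, adjusted p = 1.43e-06). The anchoring proteins Akap13 and Akap12 fell with T3 against PTU by 0.59 and 0.69 in cKO and by 0.53 and 0.46 in WT (adjusted p between 6.69e-05 and 0.00380). Among other cAMP sensors, the Popeye domain genes Bves and Popdc3 rose by 1.20 and 0.49 in cKO and by 1.08 and 0.54 in WT (adjusted p between 1.22e-06 and 0.000211). Rapgef3, the exchange factor Epac1, fell by 0.62 in WT (SE 0.13, adjusted p = 0.00152) and had a log2 change of -0.26 in cKO (SE 0.13, adjusted p = 0.118). Its T3 interaction was not called (limma adjusted p = 0.696). In the phospholipase C branch, Prkca fell by 0.72 in cKO and 0.58 in WT and Prkce by 0.35 and 0.34, while Plcb4 rose by 0.45 and 0.32 (adjusted p between 2.47e-05 and 0.0329). Kcnj5, a subunit of the potassium channel that M2 receptors open, had 17.0 ± 1.87 FPKM with T3, 48.9 ± 6.00 FPKM on PTU and 31.7 ± 2.64 FPKM on chow in cKO hearts. Its WT values were 18.05 ± 1.86, 54.3 ± 7.64 and 32.4 ± 2.02 FPKM in that order (SD, n = 3 each). It was called in all 6 treatment comparisons, with a fall with T3 against PTU of 1.47 in cKO (SE 0.12, adjusted p = 1.44e-07) and 1.53 in WT (SE 0.12, adjusted p = 1.20e-07), although its receptor Chrm2 was not called. Kcnj3, the other gene listed for this channel, was called in none of them. The median log2 change of these 2 genes with T3 against PTU was -0.30 in cKO and -0.63 in WT, smaller in size than that of Kcnj5 alone. A median of 2 values is their midpoint, so the uncalled change of Kcnj3 was positive in both genotypes, opposite to that of Kcnj5.

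Over the 18 hearts, genes among those with the pattern most like each of the 9 were described by Pearson's r of log2(FPKM + 1), which is set largely by the 3 treatments the hearts share. For the receptors these were Ano8 and Camta2 for Adrb1 (r = 0.946 and 0.943), Fabp3 and Ddx28 for Adra1a (0.870 and 0.869), Yif1b and Txn2 for Adra1b (both 0.986) and Zak for Chrm2 (0.844). They were Srf and L1cam for Adcy5 (0.858 and 0.831), Tbc1d4 for Adcy6 (0.970) and Nlgn2 and Ddah2 for Gnai2 (0.953 and 0.949). For the regulators they were Zer1 and Trafd1 for Rgs2 (0.900 and 0.898) and Aplnr and Nes for Rgs4 (0.971 and 0.957).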

How the data were processed

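Gene-level FPKM values of 18 mouse hearts were taken from the table the authors deposited, and the genotype and treatment labels gave 6 groups of 3. Per the submitters' processing notes Bowtie2, Cufflinks and the build mm10 were used; versions and annotation are not given in the sources used here. Per the labels, libraries were made with a TruSeq V2 kit from Trizol RNA; this kit does not mark strand, so reads of overlapping genes cannot be told apart. The p-values, q-values and group FPKM of the authors' deposited tables of pairwise comparisons, per the file headers, are named as theirs; their log2 fold changes and test statistic were not used.

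Read totals cannot be had from FPKM, which leaves depth unknown and permits no counting intervals; relative depth was read from value steps in 2763 low genes. The test took the 12587 genes that reached 1 FPKM in 3 or more libraries. A linear model of 6 group means on log2(FPKM + 1) was fitted with limma 3.58.1 in R 4.3.3 (trended, robust prior, 12 residual degrees of freedom), and p-values were adjusted by Benjamini-Hochberg over all tested genes within each of 12 comparisons. Fold changes on this scale understate changes of low genes, such as Adra1a and Rgs7. Errors are SD of FPKM or SE of log2 fold changes. Tested on simulated data for PTU against chow in WT (12587 genes, 200 changed, 10 draws), the model recovered 18.2% of changes at 1.25-fold, 61.2% at 1.5-fold, 89.4% at 2-fold and 97% at 3-fold, with 6.2 false calls on average. These folds were set on the FPKM + 1 scale, with noise drawn independently for each gene. A smaller share of genes was changed than the 16.8% called in the data, so these rates need not hold there.

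The 9 genes, the other lists and the rule for named genes were chosen with earlier results of these data known. The rule named the 9 genes, Med13, up to 3 called genes per role list with the largest change with T3 against PTU in WT, the 2 genes most correlated with each of the 9, and cell markers; some genes it named are not reported here. Positions are from GENCODE vM21 on GRCm38, the mm10 assembly. Alternatives were another pseudocount (0.1), no filter or one at 5 FPKM, 2 other scalings, limma without trend and robust estimation, array weights, only the groups compared, and leaving out hearts singly or by atrial or fibroblast markers.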

Additional observations from a re-analysis of the deposited data

How the results depend on the processing

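Of 108 results (9 genes in 12 comparisons), 24 were called, of which 16 kept their call under every alternative and 8 lost it under at least 1, as given with each gene; of 84 not called, 7 were called under at least 1 alternative, and no called value changed sign. The 7 were Adcy5 with T3 against PTU in cKO, Rgs2 on PTU against chow in both genotypes and with T3 against chow in cKO, Adcy6 and Adra1a with T3 against chow in cKO, and the PTU interaction of Adra1a. With T3 against chow in cKO hearts, 2 of the 9 genes were called with array weights, 2 with only the groups compared, 0 without the hearts highest in atrial markers and 3 without those highest in fibroblast markers, in place of 1. The count for the PTU interaction was 1 in place of 0 without the hearts highest in fibroblast markers, an alternative chosen after seeing the data; the cause of these moves was not tested.

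The background moved too. Over all genes, the 2111 calls of PTU against chow in WT became 925 to 3438 and the 2017 in cKO became 958 to 2653; T3 against chow ran over 713 to 1974 in WT (1848 as reported) and 967 to 3487 in cKO (2629 as reported). Genotype and interaction counts, 0 as reported, were at most 8. Calls among the other pathway genes ran from 6 to 23 for PTU against chow in WT (14 as reported), 4 to 19 in cKO (16), and for T3 against chow 6 to 15 in WT (15) and 8 to 20 in cKO (13). The counts for T3 against PTU stayed within 1.5 times throughout. No paired analysis was possible because replicate numbers were given in accession order and the labels tie no heart of one group to a heart of another. Adra1a is below the filter at 5 FPKM and was not tested there.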
